A study of Mus musculus with 7 samples.

Results

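The genes described here encode the machinery with which RNA polymerase II starts and carries on transcription: the general transcription factors, the TBP-associated factors (TAFs), Mediator, the polymerase itself and the elongation kinase P-TEFb. They were examined in left lungs of mice with a deletion of Gata5, a DNA-binding factor with GATA-type zinc fingers, against lungs of wild-type mice. Members were all genes with a single symbol in the array annotation that begins with Gtf2 and a letter between a and h, with Taf or Med and a number, or with Polr2, and also Ccnt1, Ccnt2, Cdk9 and Tbp. This gave 81 of 18193 genes, measured by 151 of 45101 probe sets, and each gene was read at the probe set with the highest mean over all 7 arrays. The set was picked because Gtf2a1 and Ccnt1 were lower in the knockout arrays with little spread. The genotype differences of the members, and the calls made on them by the fit over all genes, are therefore a description and no test, and no p-value is printed for a single member.

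The labels give 3 knockout mice (KO, genotype Gata5 KO) and 4 wild-type mice (WT), all 8 weeks old, and name each sample a biological replicate. RNA from 1 left lung per mouse was read on 1 array, the Affymetrix Mouse Genome 430 2.0; a probe set is a group of short probes read as one value, given here on a log2 scale. The sources used here do not give the strain background, the deleted part of Gata5 or the breeding. A whole lung mixes many cell types, so fewer cells of a type and less RNA per cell cannot be told apart.

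At a promoter, TFIID, which holds the TATA-binding protein TBP and the TAFs, binds first, and TFIIA and TFIIB steady it on the DNA. The polymerase arrives with TFIIF, and TFIIE and TFIIH then open the DNA and start the polymerase on its way. Mediator carries signals from enhancer-bound factors to the polymerase. P-TEFb, made of the kinase CDK9 and a T-type cyclin, phosphorylates the polymerase and its pausing factors and so releases paused polymerase into the gene body.

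The stretches of DNA just upstream of 4 members are shown. Gtf2a1, Ccnt1 and Taf13 were chosen by hand from the 14 called lower, and Med12 was the one called higher. Each is the 250 bases before the first annotated start in RefSeq, assembly GRCm38.p6, written 5′ to 3′ on the strand of the gene. Capitals mark CCGGAAG, a core sequence bound by ETS-family factors, and TATAAA, the TATA box, on either strand. The Gtf2a1 stretch lies at chr12:91590488-91590737, minus strand, the Ccnt1 stretch at chr15:98567737-98567986, minus strand, the Taf13 stretch at chr3:108571449-108571698, plus strand, and the Med12 stretch at chrX:101273841-101274090, plus strand.
Gtf2a1: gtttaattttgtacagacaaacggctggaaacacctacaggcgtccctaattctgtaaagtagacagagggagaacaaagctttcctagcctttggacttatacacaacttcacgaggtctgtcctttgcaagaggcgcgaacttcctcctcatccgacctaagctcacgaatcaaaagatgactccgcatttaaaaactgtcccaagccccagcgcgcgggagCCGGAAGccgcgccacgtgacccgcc
Ccnt1: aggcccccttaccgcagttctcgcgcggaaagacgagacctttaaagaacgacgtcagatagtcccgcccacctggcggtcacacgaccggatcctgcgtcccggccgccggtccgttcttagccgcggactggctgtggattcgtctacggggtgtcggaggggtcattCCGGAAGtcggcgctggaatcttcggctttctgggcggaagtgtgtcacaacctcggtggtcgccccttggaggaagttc
Taf13: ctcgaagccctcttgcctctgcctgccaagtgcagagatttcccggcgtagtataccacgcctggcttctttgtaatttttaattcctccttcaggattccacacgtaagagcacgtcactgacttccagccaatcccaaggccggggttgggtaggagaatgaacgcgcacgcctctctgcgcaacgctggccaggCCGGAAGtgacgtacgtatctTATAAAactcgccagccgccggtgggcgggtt
Med12: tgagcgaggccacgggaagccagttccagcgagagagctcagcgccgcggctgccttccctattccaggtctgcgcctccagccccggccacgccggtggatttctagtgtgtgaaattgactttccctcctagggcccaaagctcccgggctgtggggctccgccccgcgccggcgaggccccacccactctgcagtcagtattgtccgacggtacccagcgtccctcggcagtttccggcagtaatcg

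Gtf2a1, Ccnt1 and Taf13 hold a CCGGAAG in this window and Taf13 also a TATAAA, and Med12 holds neither. The printed stretches do not stand for all members called lower. Of the others that were matched, Med19, Taf12 and Taf3 hold a CCGGAAG. Polr2m, Polr2h, Taf4, Gtf2e1, Gtf2h5, Taf8 and Taf1 hold none. The table lists a second start for Gtf2a1, and the one farthest upstream was used. Of the members, 71 matched an entry of the promoter table, and 17 of them (23.9%) had a CCGGAAG, against 1911 of 27025 genes in the whole table (7.07%). Among the matched members the sequence was present in 6 of 13 called lower (46.2%) and in 11 of 48 tested and not called (22.9%). TATAAA occurred in 10 of the 71 members (14.1%), against 13.0% of all genes in the table. The GC box GGGCGG occurred in 45 members (63.4%) and in 33.0% of all genes. GATA motifs, searched as AGATAA or AGATAG or TGATAA or TGATAG, were in 12 members (16.9%) and in 27.1% of all genes, and in 2 of the 13 called lower, Ccnt1 and Taf3. All motifs were searched on both strands, and no motif contains another. The median GC content of the window was 58.4% in the members and 52% over the table. The letters describe these windows and were not tied to binding by any measurement here.

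Before the member values, the arrays themselves were examined. Their median log2 levels lay between 6.10 and 6.15. Lung markers were high on every array, with a mean log2 level of 14.03 in KO and 14.15 in WT for Sftpc, the surfactant protein C gene of alveolar type 2 cells, and 14.54 in KO and 14.49 in WT for Scgb1a1 of club cells. The brighter of the Gata5 probe sets, 1450126_at, read 4.98, 4.71 and 5.15 in KO and 5.32, 5.53, 5.85 and 5.47 in WT, so the groups did not overlap at a dim signal. WT replicate 4 stood apart in sex-linked transcripts. Xist read 12.72 there against 6.31 to 6.48 on the other 6 arrays, and the Y-linked Eif2s3y read 3.71 against 9.3 to 9.68. That is the pattern of a female, while the other 6 arrays, all KO arrays among them, had that of males. RNA controls also differed by genotype. The log2 signal at the 3′ end of beta-actin minus that at its 5′ end was 4.74, 5.39 and 4.76 in KO and 4.31, 3.88, 4.27 and 3.94 in WT (exact two-sided permutation p = 0.0286, the smallest that 35 splits of the arrays allow).

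Some cell type markers moved with genotype too. All 3 mesothelial markers fell, with a summed level (log2 of the sum of linear values) of 7.25 to 8.21 in KO and 8.46 to 9.63 in WT. Of 4 endothelial markers 2 fell and 2 were not called. Their summed levels overlapped, at 11.75 to 12.06 in KO and 12.04 to 12.40 in WT. Of 3 platelet markers 2 rose, with summed levels of 11.57 to 11.92 in KO and 10.85 to 11.37 in WT. No alveolar type 2 marker of 4 was called, but their summed level was 14.94 to 14.96 in KO and 15.04 to 15.22 in WT, without overlap. The summed levels of alveolar type 1, club, immune and muscle cell markers also overlapped between the genotypes. All markers of the mesothelial, endothelial and platelet lists reached the level filter given below. The part of the controls in the member results was not tested beyond the covariate fits given below. The part of these cell types was not tested.

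A gene was tested if its mean log2 level reached 5.47, the value that 40% of probe sets did not reach. It was called if the adjusted p of limma, a linear model with moderated variances fitted over 13285 genes, was under 0.05. Of the 81 members, 72 reached that level, and 14 of them (19.4%) were called lower and 1 (1.39%) higher in KO lungs, while 57 were not called. Over all tested genes 10% were called lower and 5.56% higher (15.6% in all). The median log2 difference, KO minus WT, was -0.11 over the 72 tested members and -0.003 over all tested genes. Differences below 0 were found for 53 of the 72 members (73.6%) and for 50.8% of all tested genes. The KO arrays lay below the WT arrays with no overlap for 23 of 72 members (31.9%) and above them for 4 (5.56%), against 17.5% and 12.1% of all tested genes. Changes were small: the 14 called lower differed by 1.22-fold to 1.69-fold, and 25 members lay within 0.1 of 0 on the log2 scale. The 57 not called lay between -0.35 and 0.35. The 9 members under the level were Gtf2a1l, Gtf2f2, Med27, Med9os, Taf15, Taf1b, Taf6l, Taf7l and Taf7l2.

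**Figure D1:**
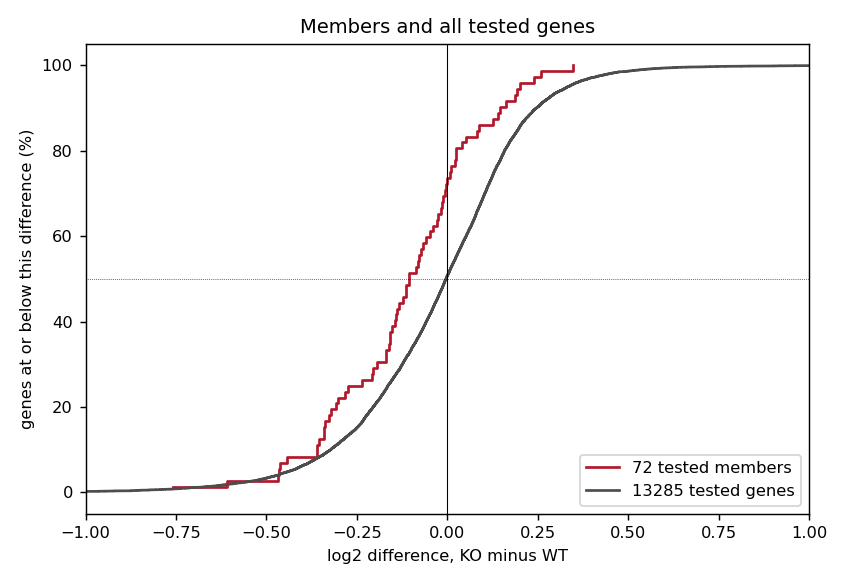
Cumulative percentage of genes (vertical axis) at or below each log2 difference, KO minus WT (horizontal axis), for the 72 tested members (red) and all 13285 tested genes (grey). The red line runs to the left of the grey one through the middle of the range, with medians of -0.11 and -0.003, and the set was picked from this contrast.

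Subunits of one complex did not all move by the same amount. Against 10% called lower over all tested genes, the number called lower was 6 of 15 tested in TFIID, 2 of 2 in TFIIE, 1 of 2 in TFIIA, 1 of 4 in TFIIH, 1 of 29 in Mediator, 2 of 11 among the polymerase II symbols and 1 of 3 in P-TEFb. None of the genes of TFIIB (1 tested) or TFIIF (1 tested), or of TAF1A to TAF1D (3 tested), which serve polymerase I, was called by limma, with 0, 0 and 2 of them at unadjusted p under 0.05.

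**Figure D2:**
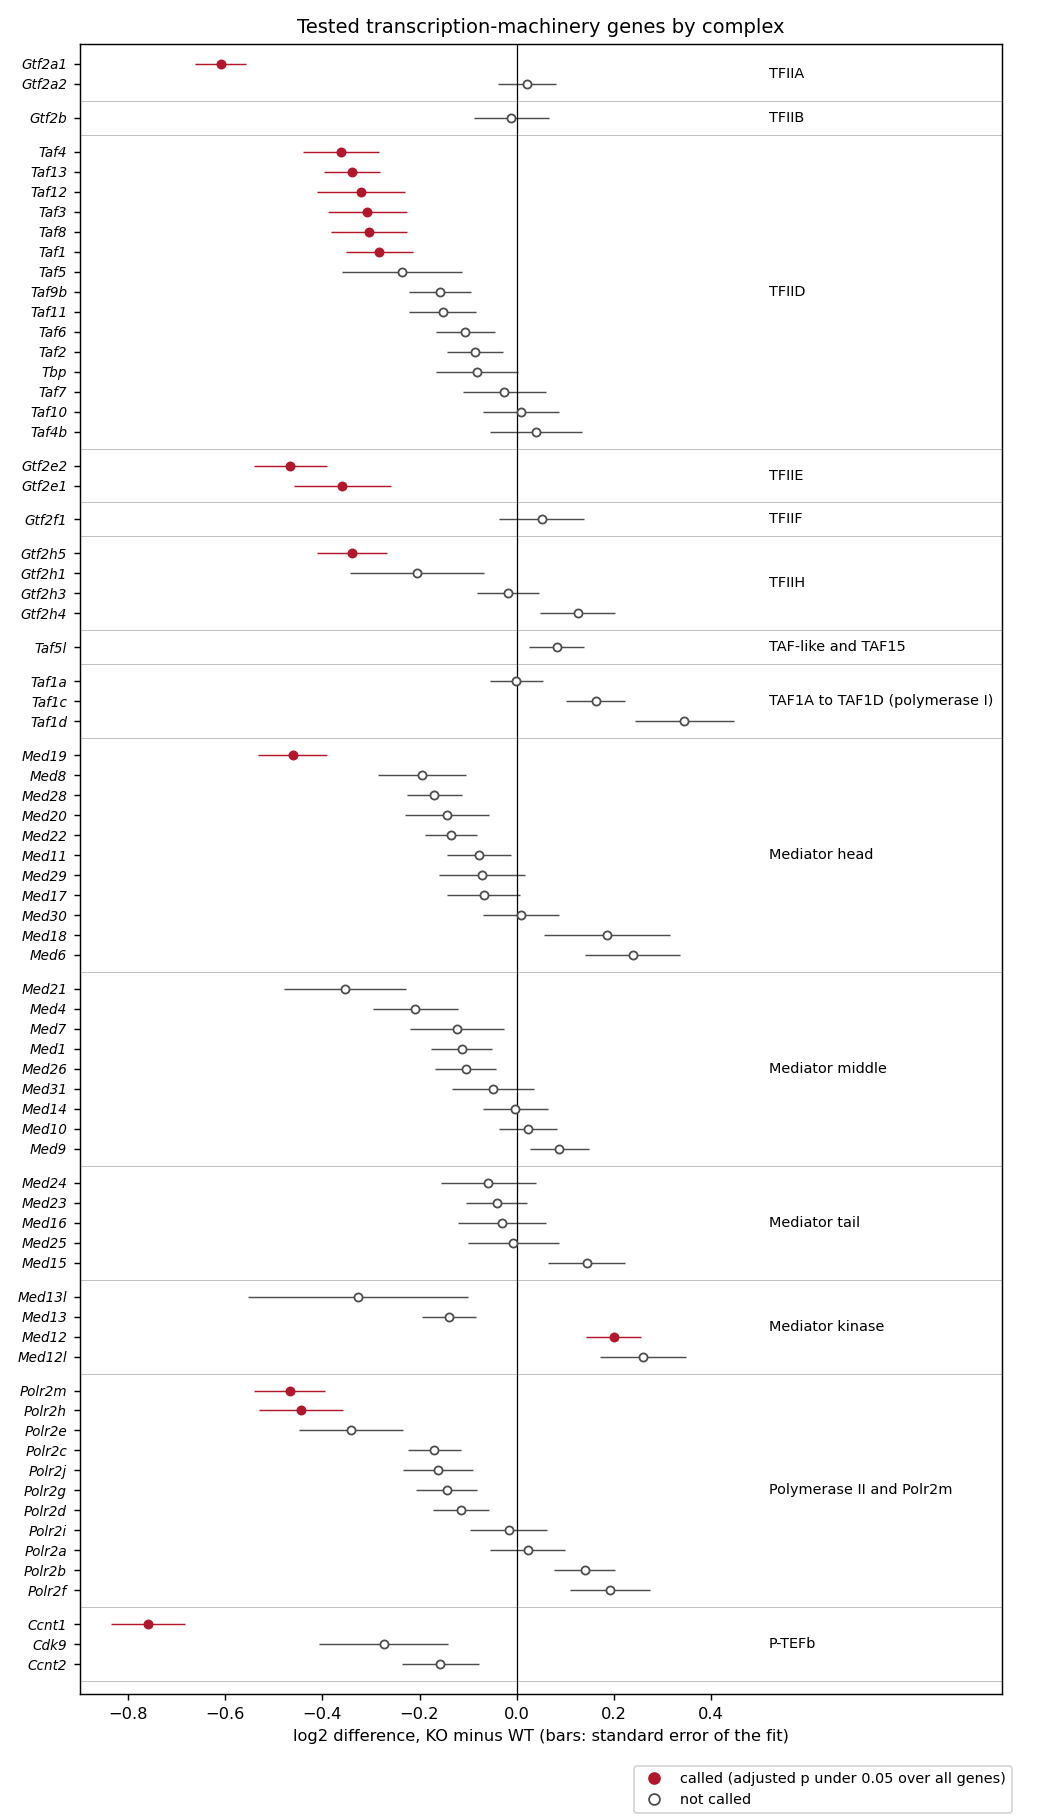
Log2 difference, KO minus WT (horizontal axis), of each tested member (rows), grouped by complex, with the standard error of the fit as bars. Filled red points are called genes and open points are not called. Ccnt1 (-0.76) and Gtf2a1 (-0.61) lie farthest left, and Med12 (0.20) is the red point on the right.

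Gtf2a1 encodes the precursor that is cut into the alpha and beta subunits of TFIIA. At probe set 1454631_at its log2 level was 7.82, 7.79 and 7.82 in KO lungs and 8.46, 8.40, 8.41 and 8.41 in WT lungs. The replicates of each genotype lay within 0.06 of each other and the groups were 0.58 apart. Mean levels were 7.81 ± 0.017 in the 3 KO lungs and 8.42 ± 0.027 in the 4 WT lungs (± SD), a difference of -0.61 ± 0.052 (standard error of the fit), or 1.53-fold lower in KO. The value depended on the probe set. A second one, 1433511_at, has nearly the same mean over the 7 arrays (8.15, against 8.16 for the one used) and read 8.08, 8.17 and 8.02 in KO and 8.27, 8.19, 8.17 and 8.13 in WT, with overlap and a difference of -0.10. The third, 1421357_at, was higher in KO with no overlap, at 5.63, 5.61 and 5.59 in KO and 5.55, 5.47, 5.35 and 5.44 in WT (difference 0.16). With the mean of all 3 probe sets the difference of Gtf2a1 was -0.18. Gtf2a2, which encodes the gamma subunit of TFIIA, averaged 10.06 ± 0.076 in KO and 10.04 ± 0.033 in WT (SD, n = 3 and 4) and was not called.

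Ccnt1 encodes cyclin T1, the main cyclin partner of CDK9. At probe set 1456477_at it read 7.53, 7.67 and 7.52 in KO and 8.47, 8.27, 8.23 and 8.36 in WT. The groups did not overlap and lay 0.56 apart. Mean levels were 7.57 ± 0.084 in the 3 KO lungs and 8.33 ± 0.11 in the 4 WT lungs (± SD), a difference of -0.76 ± 0.077 (standard error of the fit) or 1.69-fold lower in KO. Its other probe set, 1419313_at, read 7.42, 6.87 and 7.49 in KO and 7.66, 7.65, 7.60 and 7.63 in WT, which is again without overlap (difference -0.38), and KO replicate 2 was the lowest. The P-TEFb partners were not called at the probe sets used. Cdk9, the kinase, read 8.55, 8.00 and 8.57 in KO and 8.74, 8.60, 8.60 and 8.65 in WT. The groups of Cdk9 were separated by only 0.03, and most of the difference of -0.27 came from KO replicate 2, without which it was -0.0875. The value of Cdk9 took either sign with the RNA controls as a covariate: 0.17 with the beta-actin 3′ to 5′ difference, 0.20 with the Gapdh 3′ to middle difference and -0.53 with the 3′ to middle difference of beta-actin. Its other probe set differed by 0.05. Ccnt2, which encodes the alternative cyclin T2, read 10.94, 11.14 and 11.19 in KO and 11.24, 11.14, 11.28 and 11.33 in WT, with overlap. Of the 4 other Ccnt2 probe sets, 2 differed by -0.28, without overlap, and by -0.36, with overlap. The other 2 differed by 0.02 and 0.04, the last below the level filter. Read at its most variable probe set (-0.36), Ccnt2 was called lower.

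**Figure D3:**
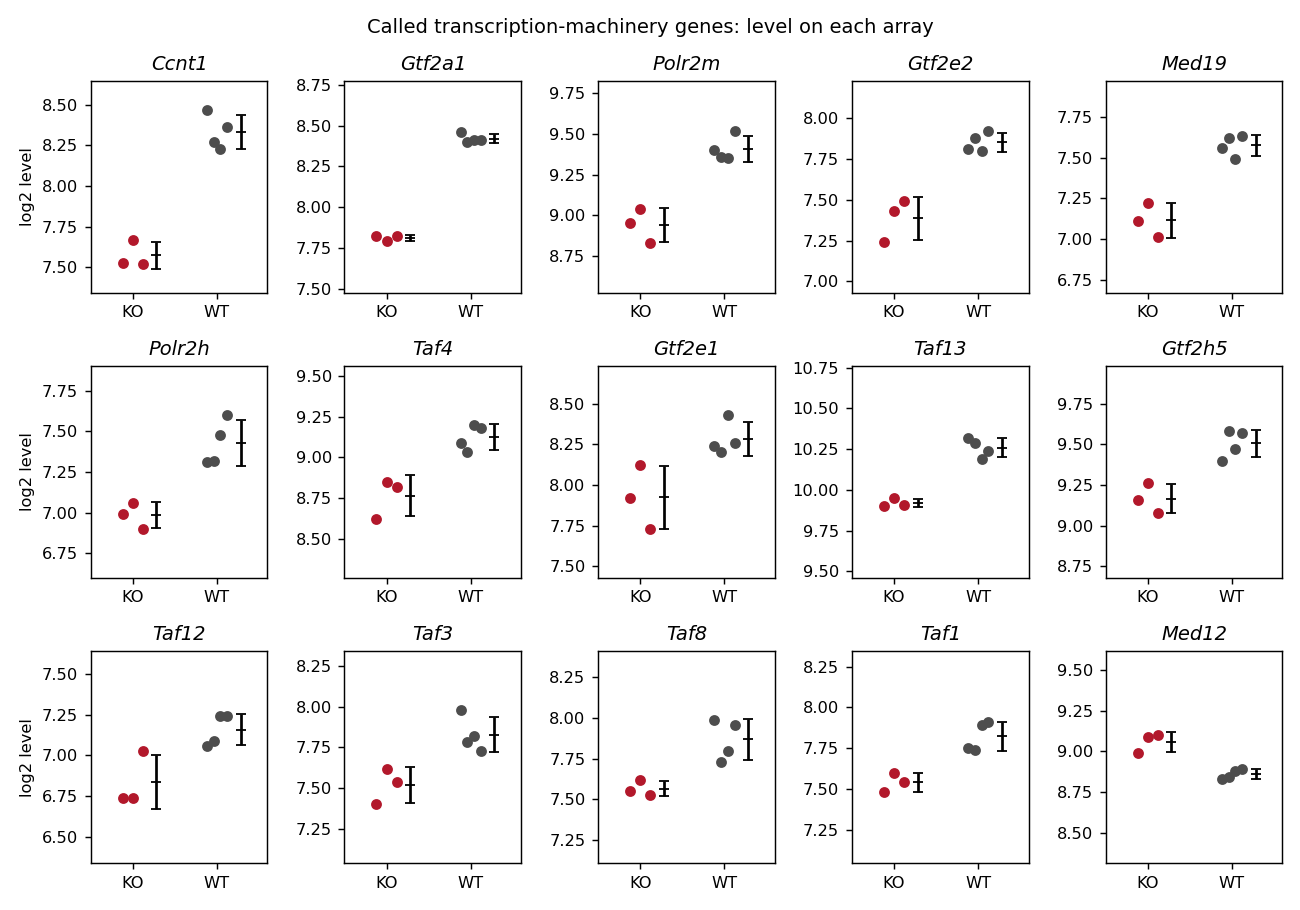
Log2 level on each array (vertical axis, every panel spanning the same range) of the 15 called members, with KO arrays in red on the left and WT arrays in grey on the right of each panel, and the mean with SD as a bar. In every panel the groups do not overlap, with the widest gaps for Gtf2a1 (0.58) and Ccnt1 (0.56) and the narrowest for Taf12 (0.03).

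TFIID held 6 of the called members, and most of these calls were lost when 1 or another of several arrays was left out. Of the 7 fits that each left out an array, Taf12, Taf3 and Taf8 kept the call in 1 each, Taf1 in 2, Taf4 in 5 and Taf13 in 7. Taf1 encodes its largest subunit, and it read 7.48, 7.60 and 7.54 in KO and 7.75, 7.74, 7.89 and 7.91 in WT, a difference of -0.28. Taf4 pairs with Taf12 through histone folds in the core of TFIID, and both were called lower: Taf4 by -0.36 and Taf12 by -0.32. The Taf4 arrays read 8.62, 8.85 and 8.82 in KO and 9.09, 9.03, 9.20 and 9.18 in WT, and its second probe set was also lower without overlap (-0.17). Taf4 lies 19 annotated genes from Gata5 on the same chromosome, so a sequence carried along with the targeted allele cannot be told apart from the deletion for this gene. Taf12 read 6.74, 6.74 and 7.03 in KO and 7.06, 7.09, 7.24 and 7.24 in WT, and KO replicate 3 nearly touched the WT range.

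Taf13 had a tight pattern, 9.90, 9.95 and 9.91 in KO and 10.32, 10.29, 10.19 and 10.24 in WT (difference -0.34 ± 0.058, standard error of the fit), while its partner Taf11 differed by -0.15 and was not called. Taf8, at 7.57 ± 0.047 in KO and 7.87 ± 0.13 in WT (SD, n = 3 and 4), and Taf3, a reader of a histone mark of active promoters, at 7.52 ± 0.11 in KO and 7.83 ± 0.11 in WT, were called lower. Taf10, the partner of both, differed by 0.01 at the probe set used, with overlap. Its second probe set read 7.13, 7.07 and 6.90 in KO and 7.14, 7.20, 7.32 and 7.39 in WT, lower without overlap (-0.23). The second probe set of Taf8 differed by -0.02. Taf6 and Taf9b, another such pair, differed by -0.11 and -0.16, both without overlap and not called. These pairs were set side by side after their values were seen. Tbp, the DNA-binding subunit, read 7.05, 7.33 and 7.35 in KO and 7.26, 7.32, 7.40 and 7.32 in WT, with overlap and a difference of -0.08.

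Both genes of TFIIE, which recruits TFIIH to the promoter, were called lower. Gtf2e2, the beta subunit, read 7.24, 7.43 and 7.49 in KO and 7.81, 7.88, 7.80 and 7.92 in WT, a difference of -0.47 or 1.38-fold. Gtf2e1, the alpha subunit, read 7.92, 8.12 and 7.73 in KO and 8.24, 8.20, 8.43 and 8.26 in WT, with a gap of only 0.08. Its call held in 1 of the 7 fits that each left out an array. In TFIIH, which opens the DNA and also serves nucleotide excision repair, Gtf2h5, its smallest core subunit, read 9.16, 9.26 and 9.08 in KO and 9.40, 9.58, 9.47 and 9.57 in WT (difference -0.34), and its other probe set differed by -0.01. Gtf2h1, Gtf2h3 and Gtf2h4 were not called, at -0.21, -0.02 and 0.13. For Gtf2h4, 2 other probe sets above the level were lower in KO without overlap, at -0.54 and -0.17. TFIIB, encoded by Gtf2b, averaged 9.83 ± 0.13 in KO and 9.84 ± 0.072 in WT (SD, n = 3 and 4), and the sign of its difference turned with the normalization.

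Mediator, the largest group with 29 tested genes, had a median log2 difference of -0.07 and 27 genes that were not called. Med19, a head subunit, read 7.11, 7.22 and 7.01 in KO and 7.56, 7.62, 7.49 and 7.63 in WT, a difference of -0.46 or 1.38-fold lower. Its second probe set differed by 0.12, the opposite way. Med12, on which the kinase module depends for activity, was the called gene that was higher, at 8.99, 9.09 and 9.10 in KO and 8.83, 8.84, 8.88 and 8.89 in WT, a difference of 0.20 or 1.15-fold. The groups of Med12 did not overlap, but the call was lost in 6 of the 7 fits that left out an array. Med12 and Taf1 lie on the X chromosome, and without WT replicate 4 they differed by 0.21 and -0.25, against 0.20 and -0.28 with all arrays. The Med12 paralog Med12l differed by 0.26, higher in KO without overlap, and was not called. Med13 and Med13l, which link the kinase module to the rest of Mediator, were at -0.14 and -0.33. In Med13l, KO replicate 3 stood apart, at 8.20 against 9.19 and 9.22 in the other KO lungs and 9.08 to 9.32 in WT. Med1, through which nuclear receptors contact Mediator, read 10.05 to 10.18 in KO and 10.15 to 10.30 in WT, with overlap. Limma called 0 of 5 tail and 0 of 9 middle subunits, with 0 and 2 of them at unadjusted p under 0.05.

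Among the polymerase II symbols, Polr2m and Polr2h were called lower. Polr2m encodes a protein that associates with the polymerase and restrains its initiation, and it read 8.95, 9.04 and 8.83 in KO and 9.40, 9.36, 9.35 and 9.52 in WT, a difference of -0.47 or 1.38-fold. Polr2h encodes a small subunit shared with polymerases I and III. It read 6.99, 7.06 and 6.90 in KO and 7.31, 7.32, 7.48 and 7.60 in WT, a difference of -0.44 or 1.36-fold. The subunits that form the catalytic core were not called. Polr2a, the largest, read 10.85, 10.67 and 10.70 in KO and 10.68, 10.63, 10.70 and 10.86 in WT, with a difference of 0.02. Polr2b, the second largest, was at 0.14, higher in KO without overlap and not called. Polr2e differed by -0.34 with overlap, and its other probe set above the level by 0.24.

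Probe sets of one gene were compared because 39 members have more than 1. Of the 111 member probe sets above the level, 31 were lower and 11 higher in KO without overlap. The same count over all probe sets above the level was not made, so these numbers describe the members only. Read at 1 probe set per gene, 17.5% of all tested genes were lower and 12.1% higher without overlap. Some members that were not called had a second probe set far from the one used. Polr2f was at 0.19 at the probe set used, and its other one read 7.46, 7.11 and 7.08 in KO and 8.02, 7.94, 7.79 and 8.04 in WT (-0.73). Med25 was at -0.01, and its other probe set read 8.13, 8.09 and 8.11 in KO and 7.62, 7.71, 7.73 and 7.74 in WT (0.41). Med14 was at -0.0025, with 2 others higher without overlap at 0.48 and 0.40. Med13 was at -0.14, with 2 others higher without overlap at 0.23 and 0.20, the last below the level. Of the 14 members called lower, 8 have other probe sets, 9 in all, of which 5 differed below 0 and 4 above 0. Of the 9, 7 lay above the level, and those of Gtf2e1 (0.24) and Taf1 (0.02) lay under it. Only the other probe sets of Ccnt1 and Taf4 were again lower without overlap, and 1 of Gtf2a1 was higher without overlap. The remaining 6, Polr2m, Gtf2e2, Polr2h, Taf13, Taf12 and Taf3, were read by a single probe set each. Probe sets can read different transcript ends, and which end each one reads is not given in the files used here.

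**Figure D4:**
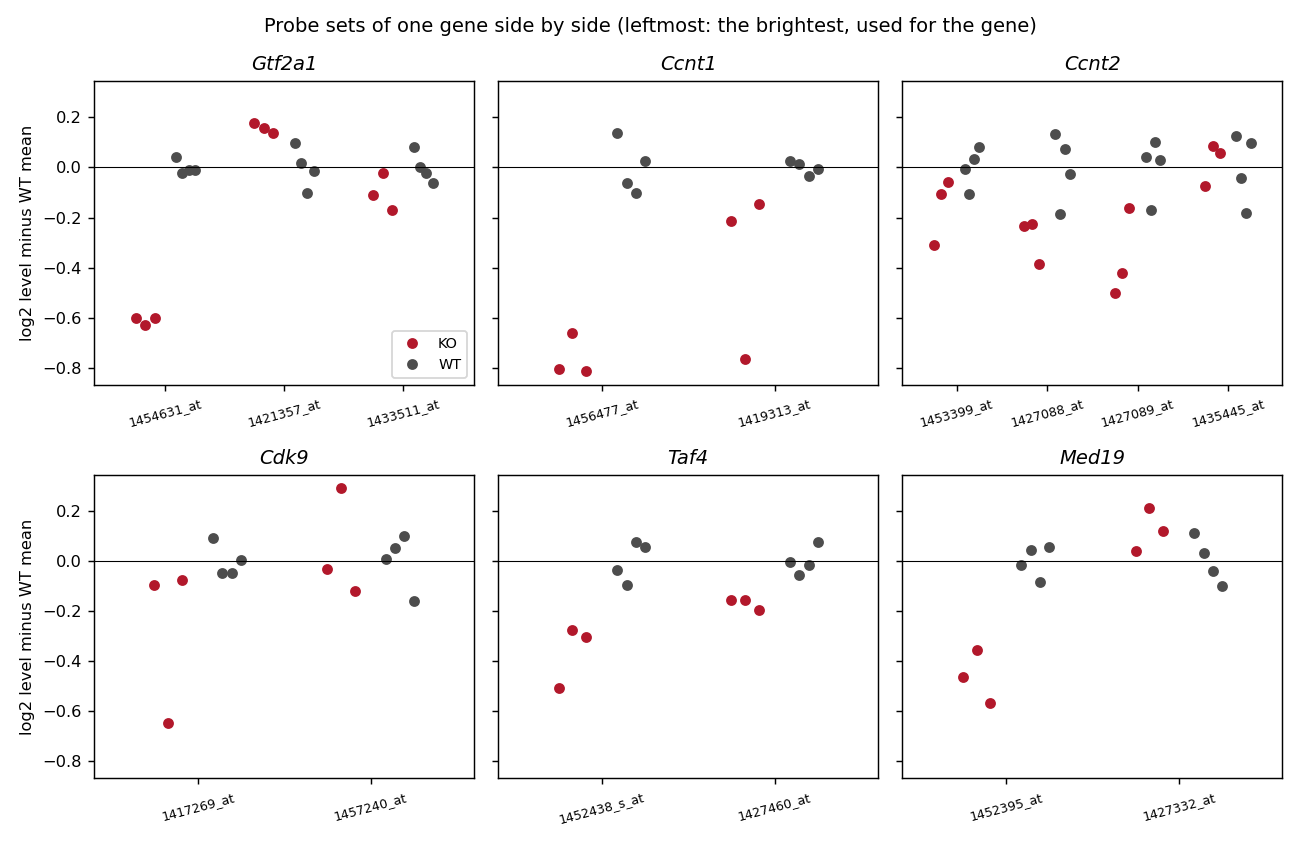
Log2 level minus the WT mean of the same probe set (vertical axis) for every probe set above the level filter of 6 members, with KO arrays in red to the left of WT arrays in grey and the probe set used for the gene leftmost in each panel. The red points lie below the grey ones at both probe sets of Ccnt1 and Taf4, and at 1 of 3 for Gtf2a1.

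Genes of the same pathway that the symbol rule leaves out were read from 8 lists. Of their 97 genes, 90 were tested, and 12 were called lower (13.3%) and 2 higher, against 10% and 5.56% of all tested genes. Of 26 pausing and elongation genes 4 fell. They included Hexim1, which holds P-TEFb inactive in the 7SK particle, at 9.13 ± 0.14 in KO and 9.63 ± 0.11 in WT (SD, n = 3 and 4, limma adjusted p = 0.0106), and Mepce, the enzyme that caps 7SK RNA, at 8.07 ± 0.24 in KO and 8.70 ± 0.10 in WT (limma adjusted p = 0.0117). Ccnk, the cyclin of CDK12 and CDK13, was at 6.32 ± 0.061 in KO and 6.80 ± 0.10 in WT (limma adjusted p = 0.00808). Larp7, another protein of the 7SK particle, named after its value was seen, differed by -0.06 and was not called.

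The next lists stand against 10% called lower and 5.56% called higher over all tested genes. The share called lower was 14.3% for the SAGA and ATAC coactivators, 14.3% for Integrator and 22.2% for polymerase III. Of 14 genes of the SAGA and ATAC coactivators, 2 fell: Tada3 by 0.40 and Tada1 by 0.39 on the log2 scale (limma adjusted p = 0.0252 and 0.0418). Among 14 Integrator genes, Ints2 and Ints11, the RNA-cutting subunit, fell by 0.38 each (limma adjusted p = 0.0138 and 0.0176), and Ints1 rose by 0.32 (limma adjusted p = 0.0418). Of 18 polymerase III genes 4 fell, including Gtf3a and Gtf3c4 at -0.46 and -0.27, and Polr3a, the largest subunit, rose by 0.41 (limma adjusted p = 0.0147, 0.0234 and 0.0141 in that order). Limma called 0 of 5 further TFIIH genes, 0 of 3 Mediator kinase partners, 0 of 7 polymerase I genes and 0 of 3 TFII-I family genes, with 1, 0, 2 and 0 at unadjusted p under 0.05.

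The calls were set against the alternatives that bear on them most. With the 3′ to 5′ difference of beta-actin, the 3′ to middle difference of Gapdh, or the 3′ to middle difference of beta-actin, added after the data were seen, as a covariate, no member was called in limma at adjusted p under 0.05. Over all tested genes limma called 0, 5 and 0 in these fits, in the order given, so the loss was not particular to the members. At unadjusted p under 0.05 there were 19, 21 and 10 of 72 members lower and 1 higher in each of the 3 fits. With no covariate there were 22 lower and 6 higher. Of all 13285 tested genes, 2204, 2726 and 1742 lay under that unadjusted p in either direction, against 4622 with no covariate. These were not counted by direction, so they cannot be set against the members called lower alone. The median over the tested members was -0.16, -0.18 and -0.06 in these fits. Gtf2a1 differed by -0.61, -0.57 and -0.64 and Ccnt1 by -0.93, -0.79 and -0.73. Polr2m and Polr2h were at -0.25 and -0.18 in the last of these fits, against -0.47 and -0.44 with no covariate. Without WT replicate 4, the array that stood apart in sex-linked transcripts, 7 members were called lower and Gtf2a1 and Ccnt1 differed by -0.61 and -0.75. Without WT replicate 1, WT replicate 3, KO replicate 1 or KO replicate 3 the count was 9, 8, 9 and 9. Of all tested genes, 4.55% were called lower without WT replicate 4. The share was 5.23%, 5.65%, 7.38% and 5.16% without the other arrays, in the order given. Of the 15 called members, 7 (Gtf2a1, Ccnt1, Polr2m, Gtf2e2, Med19, Polr2h and Taf13) were called whichever array was left out, and the other 8 lost the call at least once. For Gtf2a1 and Ccnt1 this follows from the choice of the set and is no check.

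**Figure D5:**
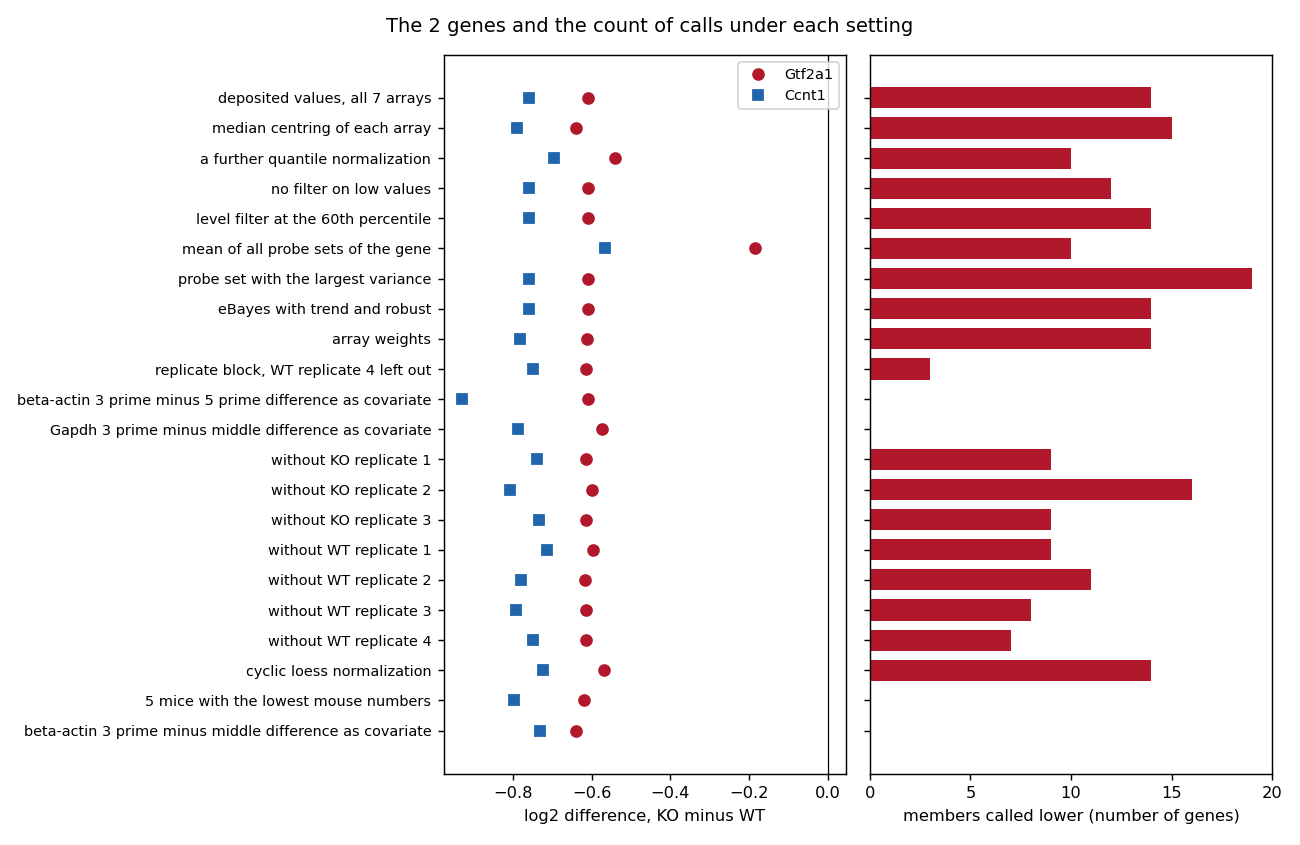
Left, log2 difference, KO minus WT, of Gtf2a1 (red circles) and Ccnt1 (blue squares) under each setting (rows); right, number of members called lower under the same setting. Both genes, by which the set was picked, stay left of 0 in all rows, and Gtf2a1 comes nearest to 0 (-0.18) with the mean of all its probe sets. The count is 0 with each of the 3 control covariates and with the 5 lowest-numbered mice. In those rows only 0 to 5 of all tested genes were called.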

How the data were processed

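Values for 45101 probe sets on 7 arrays were used on the log2 scale in which the authors deposited them. Per the submitters' processing notes, the tools were Affymetrix Expression Console, RMA and MAS5; no role is given for any of them, so the summary method is not known. The log base was taken from the range of the values. Apart from controls, 34945 of 45037 probe sets carry 1 gene in the platform annotation, 932 several and 9160 none. Symbols were updated by gene identifier through the RefSeq gene table of GRCm38.p6. Probe sets with several genes, which include those of Taf9, Polr2k and Polr2l, were left out.

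Each gene was read at its brightest probe set. Genes at or above the 40th percentile (log2 level 5.47) were compared, KO minus WT, by limma 3.58.1 (lmFit, eBayes; R 4.3.3) on genotype alone, with Benjamini-Hochberg adjustment over 13285 genes. Named genes were Gtf2a1, Ccnt1, every called member, Tbp, Cdk9, Ccnt2, Polr2a, Med1, Med12, Gtf2b, Gtf2a2, Taf4, Gata5, up to 3 called genes of each further list and the brightest marker of each marker list. Other members named beside them, and Larp7, were chosen after their values were seen. The members, lists and naming rule were chosen with earlier results of these data known. On simulated arrays with 13285 genes the fit recovered 62 of 100 genes planted at a log2 change of 0.5 and 93 of 100 at 1, with 5 false calls. The simulated noise was independent between genes and held no array-wide difference, whereas the RNA controls here differed by genotype. The number of false calls therefore cannot be carried over to these arrays. No counting depth applies to arrays, and their number limits the precision. Nothing in the labels says that replicate numbers pair KO with WT mice. Plots used matplotlib 3.10.9 (Python 3.11.15).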

Additional observations from a re-analysis of the deposited data

Results flagged for a closer look

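In Gtf2a1, WT replicate 1 stood at a log2 level of 8.46, apart from the other 3 WT arrays at 8.40 to 8.41. Its gap to the nearest array was 0.833 of the range of the 4 WT arrays, only just above the critical value of Dixon's test. The range itself was 0.06, and such a gap is met by chance in about 1 of 20 groups. In all, 22 groups were examined. The levels are rounded, and over so narrow a range rounding alone can move the ratio below the critical value. Gtf2a1 was also picked for the little spread of these same values. The test therefore cannot decide whether WT replicate 1 is an outlier, and no conclusion is drawn from it. Without that array Gtf2a1 differed by -0.60.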

How the results depend on the processing

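Over 21 alternatives, 3 of them chosen after the data were seen (cyclic loess, the 5 mice with the lowest mouse numbers, and the beta-actin 3′ to middle difference as covariate), all 15 called members kept their direction in each fit that tested them. Much of this was fixed in advance. The groups of these members did not overlap, so leaving out, weighting or blocking arrays could not turn the direction. Another level filter or variance moderation leaves the difference itself unchanged. Of 462 values of the 22 named members, 315 kept direction and side of the threshold and 127 lost the call. The call was gained by 1, Ccnt2 at its most variable probe set, and 19, all of members that were not called, changed sign. The 14 members called lower numbered 10 after a further quantile normalization, 12 with no level filter, 10 with the mean of all probe sets, 19 with the most variable probe set and 15 after median centring. Of all genes tested in those fits, 6.79%, 6.78%, 9.8%, 19.5% and 12.1% were called lower, against 10% with the settings of the report. The 1 called higher became 0 with median centring, no filter or array weights, 2 at the 60th percentile and 3 with quantile normalization, cyclic loess or the most variable probe set, which also gave 3319 genes in all and 26 of the other transcription genes (14 with the settings of the report). Leaving out 1 array gave 7 to 16 members lower, 0 to 3 higher, 891 to 1951 genes in all and 7 to 16 other transcription genes. With the beta-actin 3′ to 5′ or 3′ to middle difference as covariate or the 5 lowest-numbered mice, limma called 0 genes, members and other transcription genes, with 2204, 1742 and 2791 genes at unadjusted p under 0.05; with the Gapdh difference it called 5 genes and 0 members or other transcription genes. The cause of these changes was not tested. The fits with 5 mice, with a covariate or with 1 array left out all have fewer residual degrees of freedom. Each of the 3 control differences was higher in KO than in WT without overlap, so covariate and genotype cannot be fully told apart. Of called genes, 35.7% were higher as deposited, 25.5% after median centring, 56.9% after quantile normalization and 46.7% after cyclic loess.

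Replicate numbers did not pair the samples: deviations of same-numbered KO and WT arrays correlated at 0.11, -0.02 and -0.08. With the replicate block, WT replicate 4 left out, 371 genes, 3 members lower, 0 higher and 2 other transcription genes were called.

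Sign changes among members not called were as follows. Polr2a (0.02 in the report) was -0.0067 with median centring and ran from -0.0325 to 0.07 over the fits that left out 1 array. Gtf2a2 was -0.0075 with median centring, -0.0595 with the beta-actin 5′ covariate, -0.0918 with the Gapdh covariate, and -0.02 to 0.055 with 1 array left out. Gtf2b was 0.0889 with quantile normalization, 0.0549 with cyclic loess, 0.0233 with the replicate block, 0.0317 with the 5 mice, 0.149 with the beta-actin middle covariate, and -0.0875 to 0.0325 with 1 array left out. Tbp was 0.005 with the mean of probe sets and -0.135 to 0.015 with 1 array left out. Cdk9 was 0.172 and 0.197 with the beta-actin 5′ and Gapdh covariates, but -0.535 with the beta-actin middle covariate. The cause was not tested.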
